A study of Homo sapiens with 2 samples.

Results

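BCL2 is the gene of a mitochondrial outer membrane protein that blocks apoptosis, and the peaks described here are the sites of the transcription factor TCF4 that the authors of the data assigned to it. They are the rows of the authors' peak table with the gene name BCL2, 9 of 661 distinct peaks. The rule used the gene name and no measured value, but it was chosen with earlier results of these data known. All 9 lie on chromosome 18 between 60746374 and 60985756 (hg19, as the table gives positions). The cells were TMD8, an established ABC-DLBCL line (a diffuse large B cell lymphoma that resembles activated B cells, ABC), without copy number gain of TCF4, which carried a tetracycline-inducible TCF4 construct and was treated with 60 ng/ml doxycycline for 24 hours. The series has 1 library from the TCF4 immunoprecipitate (ChIP) and 1 from whole cell extract (input), both with the construct and both under the same treatment, so that what is measured is enrichment of TCF4 over input in cells with induced TCF4, with no replicate error and no comparison with uninduced cells. The table was restricted by its authors to signature genes, and BCL2 carried the mark Up.

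TCF4, also called E2-2, is an E protein: a basic helix-loop-helix factor that binds as a dimer to E-boxes, short motifs with the letters CANNTG. BCL2 keeps cells alive by binding the pro-apoptotic members of its own family, the BH3-only proteins and the pore formers BAX and BAK1. Its gene has 1 very long intron between the coding exons, which makes up most of its length. In B cell lymphoma BCL2 is known for translocation to the immunoglobulin heavy chain locus and, in the ABC type, for high expression and gains of its chromosome arm.

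Only the region just before the gene's start can be shown as sequence, since no hg19 genome was used here. The 250 bases before the RefSeq start of BCL2 are printed because 1 peak falls in the promoter class, at chr18:63319770-63320019 on the minus strand of GRCh38.p14, a build other than that of the peaks. They are written 5′ to 3′ in lower case, and capitals would mark an E-box.
BCL2 promoter: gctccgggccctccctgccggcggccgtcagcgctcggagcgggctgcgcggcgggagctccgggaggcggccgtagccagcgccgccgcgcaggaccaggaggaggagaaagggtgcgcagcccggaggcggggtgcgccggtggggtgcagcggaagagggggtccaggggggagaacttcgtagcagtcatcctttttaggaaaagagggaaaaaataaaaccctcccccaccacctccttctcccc
No CANNTG was found in these letters, on either strand, since the motif reads the same on both. It was present in 61.8% of 35116 RefSeq promoter windows of the same length. The forms CAGGTG or its reverse complement CACCTG, and CAGCTG, both contained in CANNTG, were likewise absent, and were present in 17.5% and 14.0% of the windows. The window had 24 CG dinucleotides against a median of 11, and 70% G or C against a median of 58%. The peak of the promoter class lay 1081.5 bp downstream of the start by the authors' distance, outside a window of this kind, and the RefSeq start may differ from the one the authors used, so these letters say nothing about the sequence under the peak.

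The table's own distances can be brought to 1 start site for all 9 peaks. The deposited centre distance of each peak was added or subtracted, with the sign picked per peak for the best fit. The peaks then imply a transcription start at 60986613, with a largest deviation of 0.5 bp. What the centre distance was measured from is not given, so its use as an offset is an assumption. For 8 peaks, annotated with NM_000633, the long transcript, the distances to start and end give a gene length of 196035 bp and an end at 60790578. The promoter peak was annotated with NM_000657, a transcript of 1427 bp by the same arithmetic, so its deposited distance to the end, 345.5 bp, is to the end of the short transcript and not of the gene. That end, implied at 60985186, falls inside the promoter peak. Of the 9 peaks, 7 were placed within the gene and 2 downstream of it, beside 52.0% of all peaks in the table within a gene and 24.5% downstream. No BCL2 peak was upstream of the start, beside 23.4% of all peaks. Whether a peak lies in an exon or an intron was not read, since no hg19 annotation was used here.

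No difference in TCF4 enrichment between the peaks of the locus was detectable at this depth. Fold is the ratio of ChIP to input reads multiplied by the authors' library scaling of 1.31, and its exact (Clopper-Pearson) 95% interval covers the counting error of independent reads only. The 9 folds ran from 5.28 to 9.36 with a median of 7.89, where all 661 peaks had a median of 6.36 and a range of 2.14 to 38.6. Of the 9, 8 lay above the median of the table, where 49.9% of all peaks lie. All 9 intervals overlapped, since the highest lower bound was 5.85 and the lowest upper bound 8.10, so the order of the peaks is within counting error. By fold, the BCL2 peaks were not among the strongest of the table: 139 peaks had a higher fold than any of them. By other measures, given below, single BCL2 peaks ranked higher.

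**Figure D1:**
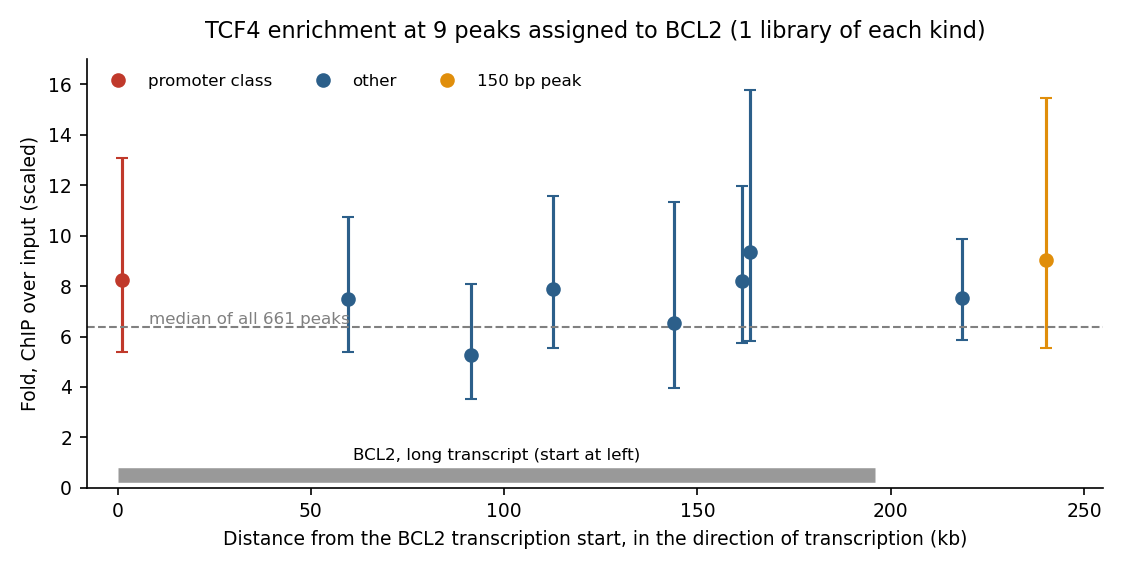
Fold of ChIP over input (vertical axis) of the 9 BCL2 peaks against distance from the transcription start in kb, in the direction of transcription; bars are exact 95% intervals of counting error, the grey bar is the long transcript, and the dashed line is the median of all 661 peaks, 6.36. The peaks spread over the gene and past its end with folds of 5.28 to 9.36, and only the peak at 91.4 kb lies under the dashed line.

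The peak nearest the start, from 60985151 to 60985756 and 605 bp wide, held 157 ChIP and 25 input reads. Its fold was 8.22 (5.37 to 13.1), and it was the only BCL2 peak in the authors' promoter class, which holds 5.45% of the table. By position it lies inside the first part of the gene and not before it. Its apex stood at 78.5% of its width counted from the lower coordinate, which is the side nearer the start, since BCL2 is read toward lower coordinates. Among the 36 promoter-class peaks its fold ranked 12, with a median of 7.01 in that class and a range of 2.44 to 28.3. Against the summed reads of the other 8 BCL2 peaks, with a fold of 7.58 (6.66 to 8.65), the promoter peak was 1.09 times as enriched, with an exact conditional 95% interval of 0.693 to 1.76. A difference between the promoter and the rest of the locus was thus not detectable at this depth, and the interval allows a ratio between these bounds.

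The gene body between the promoter and the gene's end held 6 further peaks, with folds of 5.28 to 9.36 and 7.44 (6.35 to 8.76) for their summed reads. Of these, 4 lay past the middle of the gene, toward its end. The first peak after the promoter, from 60926276 to 60927384, lay 59.7 kb from the start and held 235 ChIP reads and 41 of the input, a fold of 7.51 (5.37 to 10.7). The interval without a listed peak between it and the promoter peak, 57.8 kb, was the longest in the locus.

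The least enriched peak of BCL2, from 60894614 to 60895420, lay 91.4 kb from the start. ChIP reads numbered 125 and input reads 31, a fold of 5.28 (3.54 to 8.10). The peak from 60873666 to 60874706, 112.8 kb from the start, had 217 ChIP reads over 36 of the input, a fold of 7.89 (5.53 to 11.6). With 95 ChIP reads over 19 of the input, the peak from 60842476 to 60843076 had the fewest ChIP reads of the 9, a fold of 6.55 (3.97 to 11.4) at 143.9 kb. The ChIP reads of these 3 peaks, 95, 125 and 217, rose with their widths of 600, 806 and 1040 bp. Their fold intervals overlapped.

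A close pair of peaks lay deepest in the gene, separated by 1419 bp. The peak from 60824595 to 60825701, 161.6 kb from the start, was 1106 bp wide and had 225 reads in the ChIP and 36 in the input, a fold of 8.18 (5.74 to 12.0). Its partner from 60822700 to 60823176, 163.7 kb from the start, was 476 bp wide and had 143 and 20, a fold of 9.36 (5.84 to 15.8), the highest of BCL2. The fold of the narrower peak was 1.14 times that of the wider (exact conditional interval 0.616 to 2.17), within counting error. Other neighbouring BCL2 peaks were 16.8 to 57.8 kb apart. The most and the least enriched BCL2 peaks differed 1.77-fold, with an interval of 0.924 to 3.45 that includes 1, and this pair was picked for its difference.

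Past the gene's end were 2 peaks, which the authors named by BCL2. The nearer, from 60767093 to 60769001, lay 22.4 kb beyond the end and was the widest of the locus, 1908 bp. There were 409 ChIP reads over 71 of the input, a fold of 7.54 (5.85 to 9.85), and its ChIP reads ranked 16 of 661. The large number of reads goes with its width: its ChIP density, the authors' reads per length, was 4.92 and ranked 131. Over the 9 peaks ChIP reads were higher in wider peaks (Spearman's rho 0.82, n = 9 peaks of the same 2 libraries, a description), whereas fold and width had a rho of -0.47 over BCL2 and 0.62 over all peaks.

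**Figure D2:**
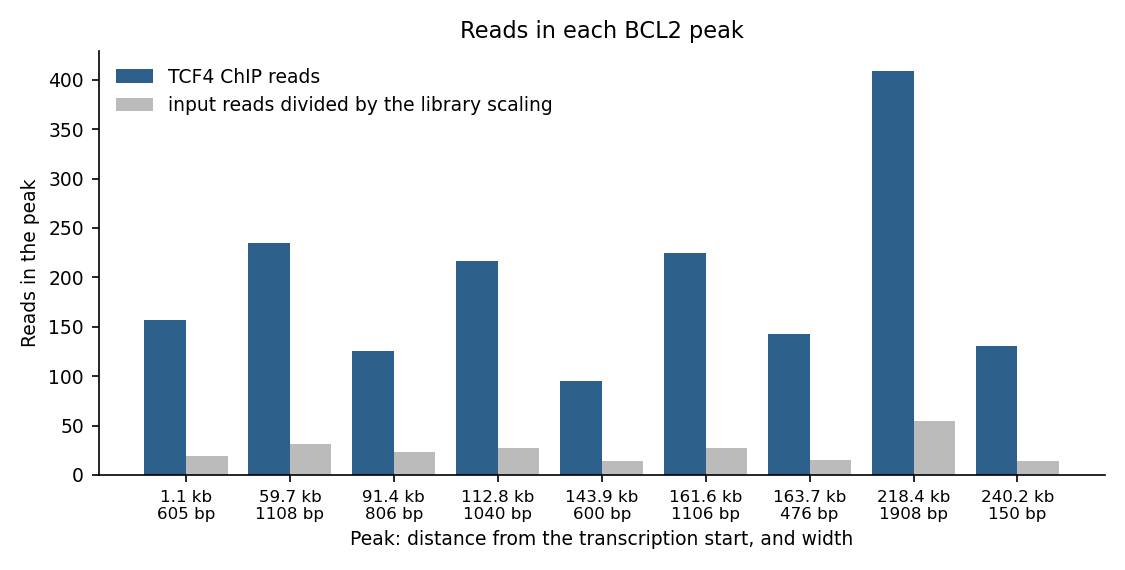
ChIP reads (blue) and input reads divided by the library scaling (grey) in each of the 9 BCL2 peaks, ordered by distance from the transcription start, with the width of each peak below. ChIP reads run from 95 to 409 and exceed scaled input in every peak, and the tallest bar belongs to the widest peak, 1908 bp.

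The farthest peak, from 60746374 to 60746524, stood apart from the other 8 in shape and in input. It lay 44.1 kb beyond the gene's end, was 150 bp wide, the minimum of the table, and held 131 ChIP and 19 input reads. Its fold of 9.03 (5.56 to 15.5) did not differ detectably from that of the other BCL2 peaks, at 1.20 times their summed fold (0.722 to 2.09). Its input density was 2.22, the highest of all 661 peaks, whereas the other 8 had 0.555 to 0.737. Per bp it held 3.47 times the input reads of the other 8 together (exact interval 2.06 to 5.53) and 4.16 times the ChIP reads (3.45 to 4.97). The peak was set apart for its width and high input, so the input ratio is a description and no test. Against the other 150 bp peaks of the table, a comparison chosen after seeing the data, it held 1.53 times the input reads per bp, with an interval of 0.886 to 2.50 that includes 1. More reads per bp thus stood in both libraries over this interval, and the fold divides one by the other.

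Its ChIP density of 20.1 ranked 2 of 661 (equal with 1 other peak), against 3.56 to 6.90 at the other 8. The authors' local −log10 p-value of the peak was 13.2, the highest in their deposited table, although its fold ranked 155. At the other 8 BCL2 peaks this value ran from 2.03 to 6.24. The BCL2 median of it, 3.01, lay below the 4.02 of all peaks, although the BCL2 median fold lay above that of the table. Of the table's 661 peaks, 10 were 150 bp wide. BLVRA and SLA, named after their values were seen, had 150 bp peaks with 131 and 115 ChIP reads and folds of 10.1 (6.07 to 17.8) and 8.37 (5.06 to 14.6), near the BCL2 peak. Their input was also near it, with 17 reads and a density of 1.99 at BLVRA and 18 reads and a density of 2.10 at SLA. The remaining 7 held 15 to 45 ChIP reads with folds of 2.14 to 4.21. Input density was high in narrow peaks generally, with a median of 1.29 in the 23 peaks of 200 bp or less (3.48% of the table, and 1 of the 9 BCL2 peaks), and the share of the BCL2 value that goes with width was not tested.

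**Figure D3:**
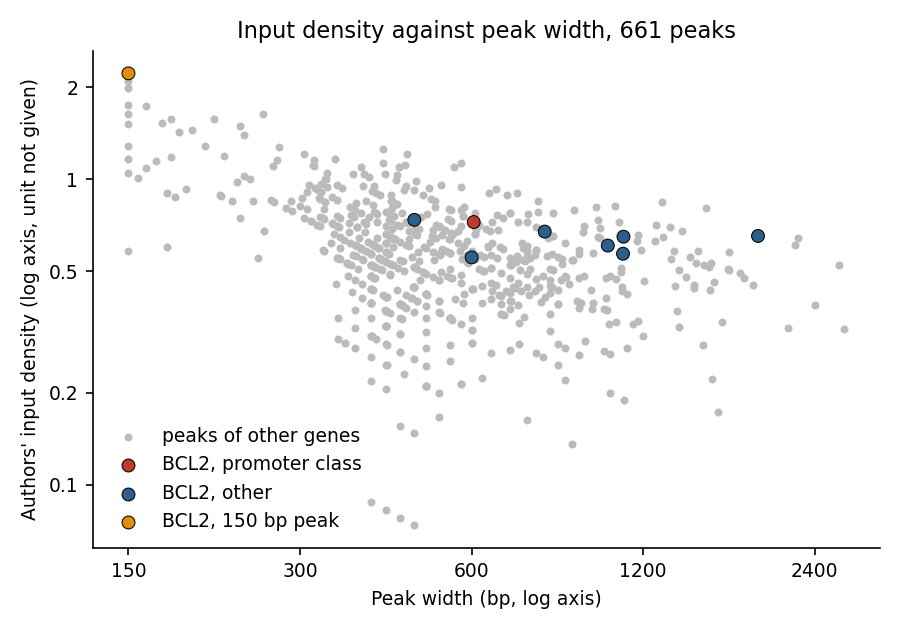
The authors' input density (vertical, log axis, unit not given) against peak width in bp (horizontal, log axis) for 661 peaks, with BCL2 peaks in colour and peaks of other genes in grey. The 150 bp BCL2 peak is the topmost point at 2.22, and the other 8 lie between 0.555 and 0.737.

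The median input density of the 8 wider BCL2 peaks lay between the quartiles of the other peaks on chromosome 18. Among peaks of 400 bp or more, the median input density was 0.651 at BCL2, 0.591 in 74 other peaks of chromosome 18 (quartiles 0.482 and 0.706) and 0.501 in 431 peaks of other chromosomes (0.391 and 0.627). Each of the 8, with a minimum of 0.555, was above the median of the other chromosomes, but so high a density is common, since 211 of the 513 peaks of 400 bp or more in the table (41.1%) exceeded that minimum. NEDD4L, on the same chromosome, had a higher median than BCL2, 0.701 over its 9 peaks of this width. The summed input reads of the 8 BCL2 peaks were 36.5 per kb. They were 32.5 per kb in the other peaks of chromosome 18 and 29.1 in those of other chromosomes. The copy number of the BCL2 locus in these cells was not tested. Median folds at this width were 7.72 at BCL2, 6.91 on the rest of chromosome 18 and 7.33 on other chromosomes. Over all peaks of 400 bp or more the median was 7.30, nearer to BCL2 than the 6.36 of the whole table.

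The lower bound of the fold exceeded 2 in 9 of 9 BCL2 peaks, beside 85.5% of all peaks, and at the 99% level also in 9 of 9, beside 79.7%. At the 95% level it exceeded 3 in 9 of 9, beside 62.9%, and 4 in 7 of 9, beside 43.9%. By the authors' normalized log2 ratio, 8 of 9 were among the 331 highest of the table, beside 50.1%. The 2 below 4 were those at 91.4 and 143.9 kb. All peaks had been called by the authors from the same libraries, so these counts are no independent test of binding. The BCL2 peaks held a median of 157 ChIP and 31 input reads, where all peaks had medians of 73 and 17, and their median width was 806 bp against 492 bp. At the same fold, more reads give a higher lower bound, and the shares of all peaks are not matched for reads or width.

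Summed over its peaks, BCL2 held more ChIP reads than any other of the 275 genes in the table, 1737 reads over 7799 bp, with a median of 171 per gene. MBP, the gene of myelin basic protein, was next with 1698 reads over 5572 bp in 7 peaks. Among the 275 genes BCL2 ranked 3 by number of peaks, 2 by sequence covered, 41 by ChIP reads per kb of peak and 84 by median fold. BCL2 had 223 ChIP reads per kb, above the gene median of 151 and above the 174 of SYK, whose peaks covered more sequence, 8396 bp. The 1737 ChIP reads and 298 input reads gave a summed fold of 7.63 (6.75 to 8.66). Sums of this kind move with how much sequence was called as peaks.

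The genes most like BCL2 in their number of peaks were the other 6 with 8 or more, FOXP1 and NEDD4L with 10, TRAK1, a mitochondrial transport adaptor gene, with 9, and FAM49A, PMAIP1 and the kinase gene SYK with 8 each. BCL2 had the highest median fold of the 7, 7.89, followed by NEDD4L, a ubiquitin ligase gene on the same chromosome, with 7.36, and FOXP1, a forkhead factor gene, had the lowest with 5.78. The order changed with the measure: by summed fold BCL2, with 7.63 (6.75 to 8.66), stood below TRAK1, PMAIP1 (7.95, 6.68 to 9.53) and NEDD4L. Median widths also differed, from 413 bp at FOXP1 to 990.5 bp at SYK, with 806 bp at BCL2. The summed folds of BCL2, NEDD4L (7.83, 6.81 to 9.03) and TRAK1 (8.07, 7.08 to 9.23) had overlapping intervals, and only that of FOXP1 (5.35, 4.40 to 6.55) lay below the interval of BCL2. Folds within BCL2 spanned the smallest range of the 7, 1.77 times from lowest to highest, beside 1.97 at PMAIP1 and 5.14 at NEDD4L. Among the 31 genes with 5 or more peaks BCL2 ranked 5 from the narrowest, with a median of 2.62 times. Counting error widens such a range and was not removed, so the ranges are a description. ChIP reads were 1737 at BCL2, 1405 at NEDD4L and 519 at FOXP1. BCL2 and FAM49A were the only genes of the 7 with a promoter-class peak, which 36 of all 275 genes had (13.1%). This depends on the limit of the class, in which the largest distance to a start was 1994.5 bp. TRAK1 and SYK had their nearest peaks 2293 and 2546 bp from the start, beside 1081.5 bp at BCL2. From the first peak to the last, the span was 239 kb at BCL2, 246 kb at NEDD4L and 857 kb at FOXP1. That is 3.76, 4.07 and 1.17 peaks per 100 kb of span.

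**Figure D4:**
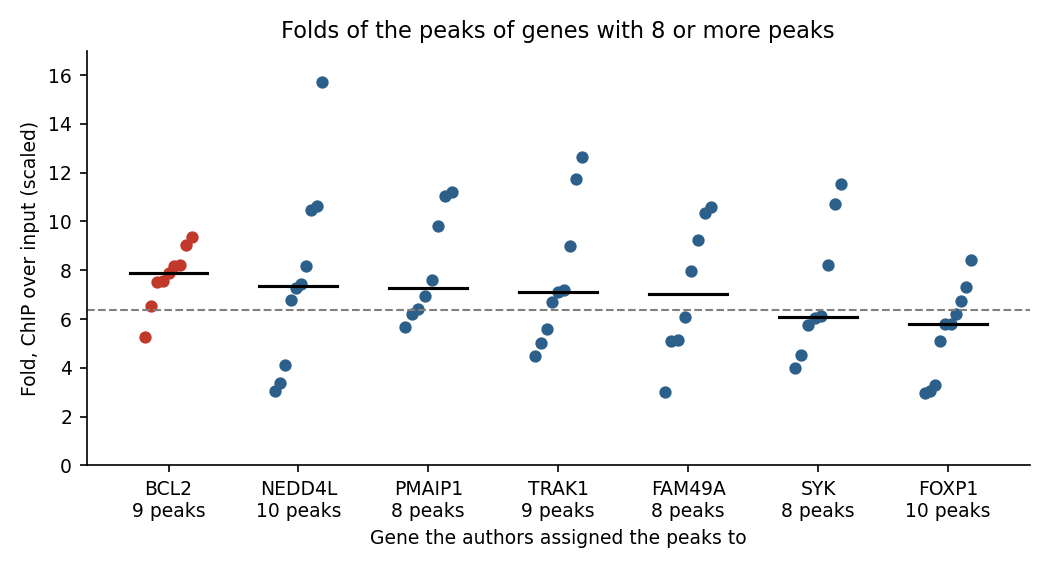
Fold of ChIP over input of every peak (points) of the 7 genes with 8 or more peaks, ordered by median fold (black lines), with BCL2 in red and the dashed line at the median of all peaks, 6.36. BCL2 points lie between 5.28 and 9.36, while those of NEDD4L reach from 3.06 to 15.7.

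Near the locus the table named few other genes. Within 2000000 bp of a BCL2 peak there were 2 other peaks. VPS4B, the gene of an ATPase of membrane remodelling, had a peak from 61070926 to 61071446, 85.2 kb from the promoter peak of BCL2 on the upstream side, with 66 reads in the ChIP, 21 in the input and 4.12-fold enrichment (2.49 to 7.08). ZCCHC2, a zinc finger gene, had one from 60250948 to 60252151, 494 kb beyond the farthest downstream peak, with 191 and 32 reads and 7.82-fold enrichment (5.35 to 11.8). The VPS4B peak had a lower fold than each of the 9 BCL2 peaks, and its interval overlapped theirs. The table lists signature genes only, so further peaks of the locus under other gene names are not described.

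Within the BCL2 family, the table named some of the pro-apoptotic BH3-only members beside BCL2 itself. Of 17 family genes, 4 were named, where 1.34% of 20056 protein-coding genes were named. BCL2 is among the 4 by choice, and the family list was chosen with earlier results of these data known. The table holds signature genes only, so the share of all protein-coding genes is no matched background. Enrichment of the family was not tested. All 4 were marked Up, as were 229 of the 275 genes of the table (83.3%). BCL2 was the only one of its survival-promoting side, which otherwise comprised BCL2L1, MCL1, BCL2L2, BCL2A1 and BCL2L10. None of the pore formers BAX, BAK1 and BOK was named. Among the BH3-only members, BBC3, BAD, BID, BMF and HRK were not named either. A gene not named cannot be called unbound.

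The other 3 named members were BCL2L11, PMAIP1 and BIK, which encode the BH3-only proteins BIM, NOXA and BIK, with 3, 8 and 1 peaks. Their 12 peaks had a median fold of 8.94 beside 7.89 at BCL2. BCL2L11 had a summed fold of 10.9 (8.84 to 13.7), above the interval of BCL2, while the intervals of PMAIP1 (7.95, 6.68 to 9.53) and BIK (10.1, 6.01 to 18.3) overlapped it. Unlike BCL2, none of these 3 had a peak in the promoter class. Their nearest peaks lay 36620.5, 26821 and 6092.5 bp from the start.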

How the data were processed

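Per the file headers, each peak has deposited counts, whole numbers of ChIP and of input reads. The second library's columns carry the letters IC and were taken as the input, the only other library. The deposited log2 ratio and normalized log2 ratio differ by 1 constant, the library scaling of 1.31. The authors' deposited signal is reads divided by width (end minus start) times a constant per library, of unit not given. The authors' deposited local −log10 p-values are printed for 1 peak, and otherwise as a range and medians. BWA, GATK and hg19 are named in the submitters' processing notes without roles. No source used here gives the peak caller. Spike-in chromatin was added, per the labels, and no source says whether the scaling used it. Total library depth is unknown, and whether starts count from 0 or 1 is not given.

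The table held 662 lines, of which 1 repeated an interval. Folds, exact intervals (SciPy 1.17.1) and conditional odds ratio intervals were computed from reads and checked on simulated data. With 1 library a group there is no test. Of 275 gene names, 275 matched RefSeq (GRCh38.p14), 266 by current symbol; promoter letters are from RefSeq. Named genes were BCL2, those with 8 or more peaks, the BCL2 family list and neighbours within 2000000 bp. The members and lists were chosen with earlier results of these data known. Reads amplified by PCR are not independent, so intervals cover counting error only.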

Additional observations from a re-analysis of the deposited data

How the results depend on the processing

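Without library scaling the median fold of the BCL2 peaks was 6.03 in place of 7.89, by construction. It was 7.63 to 7.72 with 1 read added to both libraries, with summed reads, without the 150 bp peak and without the promoter peak. With a window of 1000 bp, 0 BCL2 peaks were near the start in place of 1, because the promoter peak lies 1081.5 bp from it. In comparisons chosen after seeing the data, the input reads per bp of the 150 bp BCL2 peak were 1.53 times those of the other 150 bp peaks and 1.72 times those of the other peaks of 200 bp or less, in place of 3.47 times those of the other BCL2 peaks. The number of BCL2 peaks was 8 when restricted to the 331 highest-scoring peaks, to widths above 200 bp or after merging gaps of up to 10000 bp. No paired analysis was possible because each group has a single library. Depth limits a difference between BCL2 peaks, each with 19 to 71 input reads.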
